A study of Mus musculus with 2 samples.

Results

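Heat shock and chaperone genes encode the proteins that fold new polypeptides, refold damaged ones and hand others on for degradation. They were chosen here by symbol: Hspa, Hspb, Hspd, Hspe or Hsph followed by a number, Hsp90, Dnaj, and Cct2 to Cct8. That rule took in 81 of the 23154 genes of the count table: 14 Hspa and Hsph genes, 8 small heat shock genes (Hspb), the chaperonin pair Hspd1 and Hspe1 (2), 3 Hsp90 genes, 45 J-domain genes (Dnaj) and 9 genes of the CCT family. The question was how they were used in 87 single cells of the E10.0 mouse yolk sac, in which members were inducible or constitutive, how their levels went together from cell to cell, how they differed between the 2 libraries, and how they stood in relation to Runx1.

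The cells were sorted from C57BL/6 background embryos as CD41-CD43-CD45-CD31+CD201+Kit+CD44+, the PK44 phenotype, and picked by mouth pipette into 2 libraries of 43 and 44 cells. Nothing in the labels says whether the libraries came from separate embryos or pools, so p-values measure only the spread between these libraries, which may be technical. Library 1 held 8932527 UMI counts, with a median of 141577 per cell (13218 to 702028), and library 2 held 12706360, with a median of 238898.5 (51620 to 956593).

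Endothelial and sort genes matched the label. The 7 endothelial genes, all detected, summed to 2147 and 3479 CPM (UMI counts scaled to the same total in each library) in libraries 1 and 2, with Cdh5 the highest in library 1 and Egfl7 in library 2. The 4 sort-positive genes were all detected, at 955 and 929.8 CPM: Pecam1 (CD31) 220.2 and 466, Procr (CD201) 235 and 165, Kit 209 and 86.3, and Cd44 291 and 212. The genes of the 3 negative sort markers were low, Itga2b (CD41) at 65.0 and 37.8 CPM, Spn (CD43) at 17.0 and 3.94 and Ptprc (CD45) at 1.57 and 3.38. Hematopoietic genes, Runx1 among them, summed to 798 and 412 CPM, and erythroid genes to 13.3 and 18.7. Macrophage genes stood at 112 and 92.9 CPM, with Cx3cr1 at 0. A mesenchymal gene list summed to 830.3 and 329.7 CPM, far above its medians per cell of 47.0 and 26.7, and 3 of the 87 cells (2 and 1) held at least 100 counts of each of Col1a1, Col1a2, Col3a1 and Lum.

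Chaperones work in chains. Hsp70 proteins (Hspa genes) bind exposed stretches of unfolded protein, J-domain proteins (Dnaj genes) deliver clients to them and trigger their ATPase, Hsp110 (Hsph1) resets them, and Hsp90 takes on nearly folded clients such as kinases and receptors. The CCT ring folds actin and tubulin, Hspd1 and Hspe1 form the barrel and lid of the mitochondrial chaperonin, and Hspa5 and Hsp90b1 are the Hsp70 and the Hsp90 of the endoplasmic reticulum (ER). Hsf1 switches on the heat shock genes through the heat shock element, and the ER genes are switched on in the unfolded protein response through the ER stress element.

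Hspa1a and Hspa1b, the genes of inducible Hsp70, are neighbors on chromosome 17, and could be told apart only in part. Hspa1a lies at chr17:34969190-34972156 and Hspa1b at chr17:34956436-34959238, both on the minus strand. Their coding sequences of 1923 and 1926 bases were the same at 1915 bases (99.4%). The stretches after the stop codon, 810 and 643 bases long, differed far more: 391 bases (48.3% of the longer) were the same, and 166 (55.3%) of the last 300. Tags near the 3′ end could separate the genes, and tags in the coding sequence mostly could not, so the division of counts between them is uncertain. Their sum is used below for ranges across cells and for splitting cells, and values of each gene alone carry that uncertainty. Their promoters, from RefSeq (GRCm38.p6, 250 bases before to 50 after the start of transcription), are shown because the pair is nearly one sequence there too. Capitals mark the 4 of 300 bases that differ between Hspa1a (chr17:34972107-34972406, minus strand) and Hspa1b (chr17:34959189-34959488, minus strand).

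Hspa1a: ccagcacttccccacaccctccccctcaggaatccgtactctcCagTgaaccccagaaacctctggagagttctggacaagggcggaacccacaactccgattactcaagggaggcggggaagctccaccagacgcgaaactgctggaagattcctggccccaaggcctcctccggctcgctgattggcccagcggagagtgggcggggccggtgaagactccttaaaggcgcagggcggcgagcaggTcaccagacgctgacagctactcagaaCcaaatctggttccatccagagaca
Hspa1b: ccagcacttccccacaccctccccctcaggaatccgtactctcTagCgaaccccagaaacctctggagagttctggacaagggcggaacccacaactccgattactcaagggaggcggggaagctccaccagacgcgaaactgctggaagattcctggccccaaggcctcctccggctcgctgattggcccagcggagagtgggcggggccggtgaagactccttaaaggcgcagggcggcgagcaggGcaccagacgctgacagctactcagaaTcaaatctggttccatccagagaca

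Neither held a match to the heat shock element as written here, GAANNTTCNNGAA or its reverse complement TTCNNGAANNTTC, with no base out of place. That motif was found in 198 of 32851 mouse promoters (0.603%). Counted by gene, 179 of 27025 genes (0.662%) held it. RefSeq promoters were listed for 66 of the 81 members, and 4 of those genes held the motif: Hsph1, Dnajb6, Hspd1 and Hspe1. The first and last are shown, with matches in capitals, because they belong to the genes that recur below. Hsph1 (chr5:149636287-149636586, minus strand, 1 of 2 promoters listed) held 1 match and Hspe1 (chr1:55087898-55088197, plus strand) held 2 that overlap.

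Hsph1: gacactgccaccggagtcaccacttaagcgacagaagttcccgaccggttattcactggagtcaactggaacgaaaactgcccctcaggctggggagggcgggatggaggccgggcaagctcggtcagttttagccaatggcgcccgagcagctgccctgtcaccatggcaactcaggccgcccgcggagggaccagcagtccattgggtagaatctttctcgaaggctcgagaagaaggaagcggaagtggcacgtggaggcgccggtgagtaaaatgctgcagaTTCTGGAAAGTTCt
Hspe1: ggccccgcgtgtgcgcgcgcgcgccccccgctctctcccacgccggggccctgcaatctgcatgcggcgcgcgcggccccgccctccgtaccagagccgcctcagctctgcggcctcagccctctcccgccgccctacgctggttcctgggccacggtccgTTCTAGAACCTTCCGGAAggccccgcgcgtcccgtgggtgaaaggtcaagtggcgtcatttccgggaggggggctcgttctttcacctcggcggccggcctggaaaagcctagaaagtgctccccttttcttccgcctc

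The ER stress element, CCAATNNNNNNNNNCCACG or its reverse complement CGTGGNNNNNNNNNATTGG, was found in 39 of the 32851 promoters (0.119%). Counted by gene, 37 of 27025 genes (0.137%) held it. It was present in 3 members, Hspa5, Hsp90b1 and Dnajc3, all from the ER group. The promoters of the Hsp70 and the Hsp90 of the ER are shown with matches in capitals, because these genes went opposite to the other groups below. Hspa5 (chr2:34771840-34772139, plus strand) held 1 match and Hsp90b1 (chr10:86705395-86705694, minus strand) held 2. A match describes the sequence and says nothing of use in these cells.

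Hspa5: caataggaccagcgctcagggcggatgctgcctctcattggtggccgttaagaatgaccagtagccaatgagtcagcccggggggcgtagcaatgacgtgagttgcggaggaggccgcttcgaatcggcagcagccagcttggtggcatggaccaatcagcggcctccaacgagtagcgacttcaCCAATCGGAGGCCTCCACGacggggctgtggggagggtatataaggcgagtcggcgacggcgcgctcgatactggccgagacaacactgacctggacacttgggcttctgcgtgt
Hsp90b1: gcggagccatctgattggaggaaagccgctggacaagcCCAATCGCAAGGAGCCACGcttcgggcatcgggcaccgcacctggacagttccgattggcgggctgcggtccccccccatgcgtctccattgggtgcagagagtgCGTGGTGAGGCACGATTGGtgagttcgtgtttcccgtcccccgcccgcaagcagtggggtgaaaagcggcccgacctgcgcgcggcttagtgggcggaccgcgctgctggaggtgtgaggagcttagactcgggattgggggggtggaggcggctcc

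Chaperone messages were a large part of the cells' RNA. The 81 members took 2.78% of all counts in library 1 and 2.09% in library 2, that is 27799.5 and 20928 CPM (24364 ± 4859, SD, n = 2). At least 1 count was seen for 67 of them, 63 in library 1 and 67 in library 2, and 14 had none. A small number of genes carried most of the sum. Levels are UMI counts not divided by transcript length, since each molecule is counted once near its 3′ end.

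Cytosolic Hsp90 and Hsp70 led. Hsp90ab1, the constitutive Hsp90, stood at 6478 CPM in library 1 and 4807 in library 2 (5643 ± 1181, SD, n = 2) and ranked 4 among all genes. Hspa8, the constitutive Hsp70, stood at 3357 and 2152 CPM (rank 18), and Hsp90aa1, the inducible Hsp90, at 2926 and 1793 (rank 31). Hspa1a stood at 999.9 and 1316 CPM and Hspa1b at 1222 and 1030.4, so the pair together lay below Hspa8 in library 1 and above it in library 2, although it is classed as inducible. The other inducible genes were lower: Dnajb1, the J protein that serves inducible Hsp70, at 496 and 353 CPM, Hsph1 at 346 and 138, and the small heat shock gene Hspb1 at 192 and 251. In all, 6 inducible cytosolic genes summed to 6181 and 4882 CPM and 8 constitutive ones to 11188 and 7976.

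The other constitutive cytosolic genes were far below Hspa8 and Hsp90ab1. The J proteins Dnaja1 and Dnaja2 stood at 371 and 308 and at 276 and 171 CPM, Hspa4, an Hsp110 relative, at 337 and 185, and Dnajb6, which keeps proteins from clumping, at 199 and 162. Hspa14, an Hsp70 at the ribosome, stood at 117 and 118 CPM, and Dnajc7, which links Hsp70 to Hsp90, at 53.0 and 71.9. Most of the constitutive sum thus came from Hsp90ab1 and Hspa8.

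Organelle chaperones and the CCT ring were well expressed too. By the mean of both libraries, Cct5 was highest among CCT subunits (839 and 528 CPM), followed by Cct7 (586 and 543) and Cct3 (524 and 361). Next came Cct4 (516 and 367), Cct6a (479 and 311), Cct2 (454 and 297) and Cct8 (384 and 296). Within library 2, Cct7 stood above Cct5 and Cct4 above Cct3. In mitochondria the lid gene Hspe1 stood at 1511 and 1180.4 CPM, the barrel gene Hspd1 at 758 and 484, the Hsp70 gene Hspa9 at 336 and 267 and its J partner Dnaja3 at 15.3 and 27.8. In the ER, Hsp90b1 stood at 859 and 774 CPM and Hspa5 at 813 and 604. The ER J proteins were lower, Dnajc3 at 162 and 145, Dnajb11 at 57.1 and 86.1 and Dnajb9 at 54.6 and 53.4, as was the ER Hsp70 relative Hspa13 at 17.7 and 44.2. The 7 CCT subunits summed to 3782 and 2704 CPM, the 8 ER genes to 2184 and 1832 and the 6 mitochondrial genes to 2784 and 2178, so every group was present at a high level in both libraries.

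**Figure D1:**
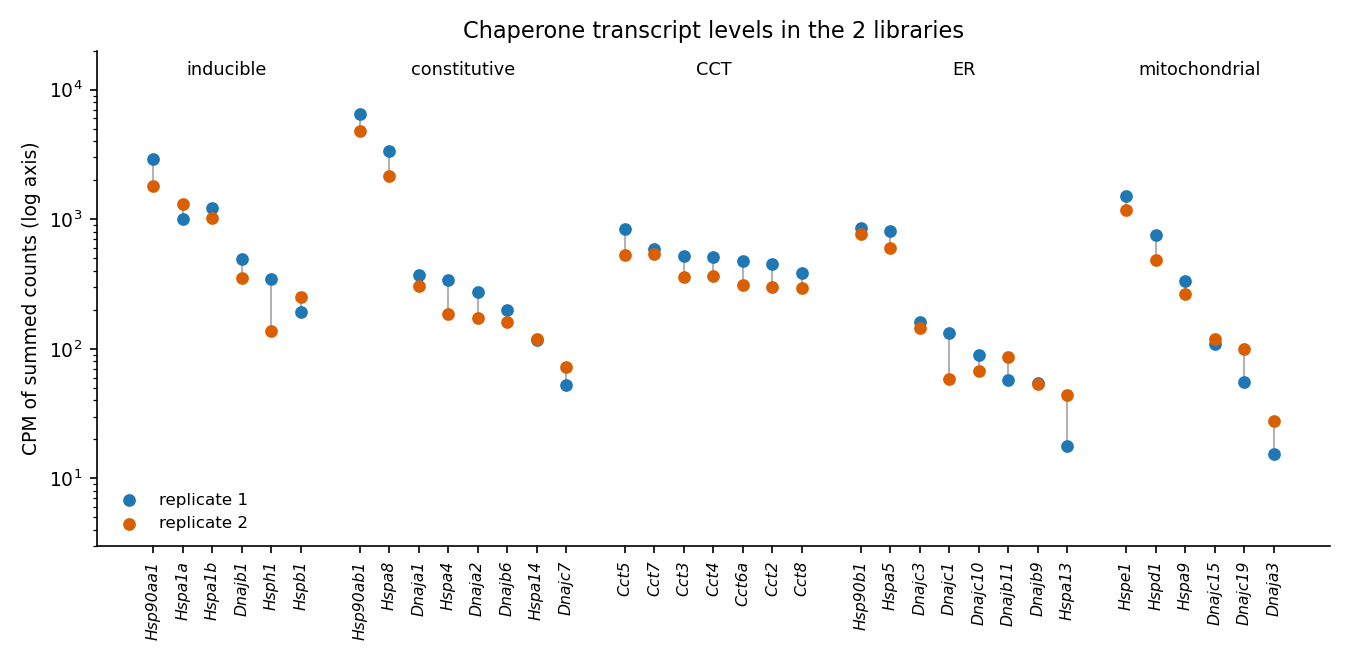
Levels of the 35 genes of the 5 groups in libraries 1 and 2, in CPM on a log axis. Hsp90ab1, Hspa8 and Hsp90aa1 stand above all others in both libraries.

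From cell to cell the inducible Hsp70 pair spanned a wider range than Hspa8 and Hsp90ab1, the most abundant constitutive genes. The median variation of the inducible and constitutive groups was close, but the groups were not matched for level. Hspa1a and Hspa1b together ranged from 92.2 to 9544 CPM in library 1 (median 2414) and from 109.6 to 9584 in library 2 (median 2148), a spread of 103-fold and 87.5-fold. Hspa8 spread over 22.5-fold and 13.9-fold, and Hsp90ab1 over 7.43-fold and 3.80-fold. The pair reached 1000 CPM in 34 of 43 and 36 of 44 cells and stood above Hspa8 in 20 and 21 cells. High Hspa1 was thus the usual state of these cells, and a minority had little.

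The coefficient of variation (CV, SD divided by mean of per-cell CPM) was 1.04 and 0.856 for Hspa1a, 0.953 and 0.785 for Hspa1b, and 0.487 and 0.408 for Hspa8. Hsp90ab1, at 0.310 and 0.338, had the lowest of the 30 members at 100 CPM or more. By group, median CVs were 1.17 and 0.924 for inducible genes, 1.07 and 0.860 for constitutive, 0.861 and 0.734 for CCT, 1.10 and 0.613 for ER, and 0.872 and 0.876 for mitochondrial genes. Across the 30 members the medians were 0.997 and 0.792, against 1.43 and 0.960 for all 2050 genes at that level. Hspa1a and Hspa1b thus lay just below the constitutive median, and the median chaperone was steadier than the median gene. A CV also carries counting error, which is larger in genes with low counts and in cells of low depth.

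Hspb1 was the exception among inducible genes. It had a count in 55.8% of cells of library 1 and 88.6% of library 2, its top cell gave 37.8% and 26.5% of its counts, and its CV was 2.94 in each. A large share of its level in each library therefore came from 1 cell.

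**Figure D2:**
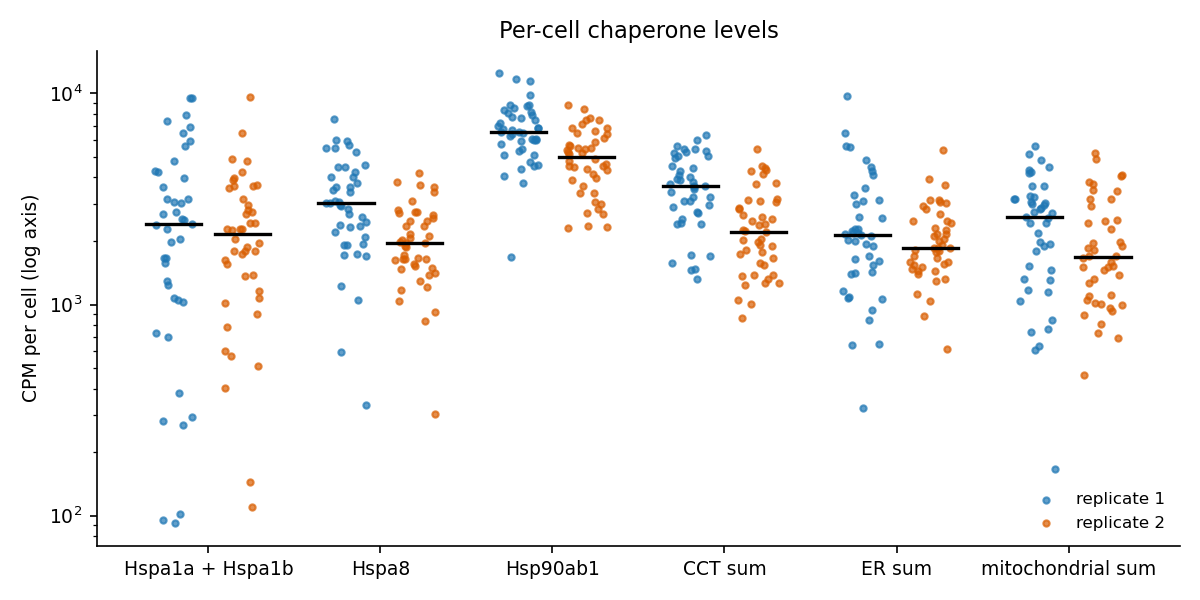
CPM per cell on a log axis of the Hspa1 pair, Hspa8, Hsp90ab1 and the summed CCT, ER and mitochondrial genes, for the 43 and 44 cells of libraries 1 and 2, with bars at medians. The Hspa1 pair spans 103-fold and 87.5-fold, and Hsp90ab1 7.43-fold and 3.80-fold.

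Coordination among chaperones was weak overall and sat in a small number of pairs and groups. It was measured by Spearman correlation of per-cell CPM within each library (43 and 44 cells), over 34 members and 3661 genes with a count in at least 50% of the cells of each library. Of 561 member pairs, 274 (48.8%) lay above 0 in both libraries and 89 (15.9%) below 0 in both, against 39.6% and 15.1% of all 6699630 gene pairs. The median member pair was 0.0769 in library 1 and 0.113 in library 2, against 0.0774 and 0.0285 for all genes. Cells of one library share its preparation, and depth differs between cells and moves with these levels, so the values describe these cells only.

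The highest pairs joined genes of the same group and of different groups. Hspa1a and Hspa1b correlated at 0.629 and 0.467 in libraries 1 and 2, above 99.99% and 99.6% of all gene pairs, though shared tags can raise that value. Hspd1 and Hspe1, whose exons overlap head to head on chromosome 1 (chr1:55077835-55088243, minus strand, and chr1:55088132-55091307, plus strand), correlated at 0.516 and 0.460. Strand use in counting is not given, so tags in the overlap could affect that value too. Cct4 with Hspd1 (0.507 and 0.469) and Cct3 with Hspa9 (0.385 and 0.447), each a cytosolic and a mitochondrial gene, stood about as high, as did Hsp90aa1 with Hsp90ab1 (0.365 and 0.445). The ER pair Hspa5 and Hsp90b1 was lower, at 0.476 and 0.216.

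Groups were held together loosely, and their order depended on the method. CCT subunits had median pairs of 0.139 and 0.333, inducible genes 0.152 and 0.214, mitochondrial genes 0.135 and 0.187, ER genes 0.108 and 0.0439 and constitutive genes 0.0799 and 0.130. In cells thinned to 20000 counts the CCT median was 0.0881 and 0.169, below the inducible (0.219 and 0.210) in both libraries and below the mitochondrial (0.171 and 0.150) in library 1. Given total counts the CCT median was 0.134 and 0.271, the inducible 0.151 and 0.216 and the mitochondrial 0.0872 and 0.166. CCT and mitochondrial genes also went together across groups (0.159 and 0.300), whereas CCT and ER genes did not (0.00279 and -0.0326). The lowest pairs joined Dnajc15 with Hsp90b1 (-0.279 and -0.331) and Cct7 with Hspa5 (-0.00559 and -0.573).

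Inducible and constitutive members were only loosely coupled. Pairs across those groups had medians of 0.0204 and 0.152, and the Hspa1 genes with the other inducible genes 0.180 and 0.0873. By the mean of both libraries, summed Hspa1a and Hspa1b went most with Hsp90aa1 (0.378 and 0.369) and Dnajb1 (0.290 and 0.295) among members, and least with Cct6a (-0.345 and -0.0613). Inducible Hsp70 thus varied with Hsp90aa1 and Dnajb1 at moderate strength, and not with the CCT sum (-0.0951 and -0.0872). Hsp90aa1 was not particular to it, since it went with the CCT sum about as much (0.304 and 0.356).

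The summed CCT ring varied with the mitochondrial chaperonin, and also with cytosolic Hsp90 (Hsp90ab1 at 0.248 and 0.466). The CCT sum stood at 0.501 and 0.594 with Hspd1, 0.322 and 0.616 with Hsph1, 0.356 and 0.463 with Hspa9 and 0.397 and 0.377 with Hspe1. It was lowest with Hspa5 (-0.0510 and -0.385). The sum also went with depth (0.213 and 0.453 with total counts), while the ER sum went against it (-0.185 and -0.474), and depth could not be told apart from cell state in these values.

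Outside the family, the 2 sums had different company. Of 3627 other genes, the 10 most alike to the Hspa1 sum by the mean of both libraries included the endothelial transcription factors Ets1 (0.423 and 0.473) and Fli1 (0.382 and 0.400) and the immediate early factors Jun (0.370 and 0.380), Klf6 (0.396 and 0.2865) and Jund (0.0671 and 0.534). Next to them were the translation factor Eif4g1 (0.318 and 0.427), the integrin Itga6 (0.428 and 0.204), the sort marker Procr (0.2265 and 0.3799), the sorting nexin Snx2 (0.264 and 0.334) and the uncharacterized gene C330006A16Rik (0.301 and 0.320).

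The 10 genes most alike to the CCT sum included Nhp2 (0.497 and 0.7735), which guides rRNA modification, the nucleolar chaperone Npm1 (0.568 and 0.674), the RNA helicase Ddx39 (0.623 and 0.568), the histone chaperones Set (0.562 and 0.603) and Anp32b (0.362 and 0.643), and Lsm2 (0.569 and 0.439) of the splicing machinery. With them were the ribosomal proteins Rps25 (0.439 and 0.638), Rpl23a (0.546 and 0.522) and Rpl35a (0.349 and 0.692) and the phospholipase Plcg2 (0.429 and 0.648). No gene was among the 10 most alike to both sums.

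**Figure D3:**
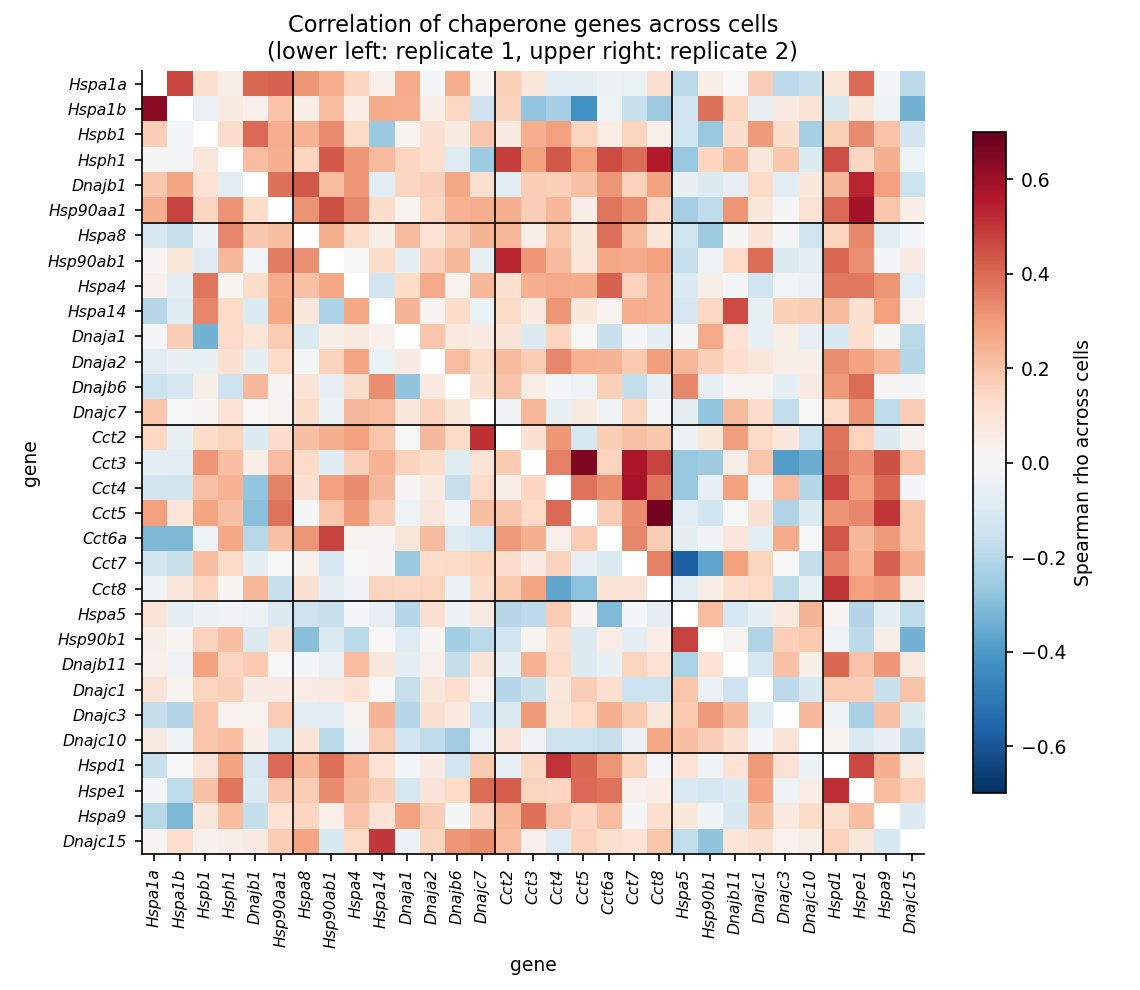
Spearman correlation of per-cell CPM between members, library 1 at lower left and library 2 at upper right. The mean over both libraries is highest for Hspa1a with Hspa1b (0.629 and 0.467), followed by Cct4 with Hspd1 (0.507 and 0.469) and Hspd1 with Hspe1 (0.516 and 0.460).

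The summed level of every chaperone group was lower in library 2 than in library 1. No test was made, since both libraries hold the same kind of cell and each is 1 sample. Among 55 members at 10 CPM or more, 39 were lower and 16 higher in library 2 (70.9% lower, against 49.6% of all 8695 genes at that level). By 2-fold or more, 5 were lower and 1 was higher, where 12.1% of all genes were lower and 14.7% higher. The median log2 ratio was -0.33, against 0.01 for all genes, so the shift was broad and mostly small.

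Group sums moved the same way. Log2 ratios of library 2 to library 1 were -0.34 for inducible genes (6181 and 4882 CPM), -0.49 for constitutive (11188 and 7976) and -0.48 for CCT (3782 and 2704), in which all 7 subunits were lower. ER genes stood at -0.25, with 6 of 8 lower, and mitochondrial genes at -0.35, though 3 of 6 were higher. Co-chaperones outside the family also were lower in library 2, 2547 and 2027 CPM. Tcp1, a CCT subunit that the symbol rule missed, was listed with the prefoldin genes. That list (1486 and 1449) and outside genes of the ER stress response (2968 and 2944) stood level. Cell type markers moved between libraries too, endothelial genes by 0.70 (7 of 7 higher), hematopoietic genes by -0.95 (5 of 5 lower) and mesenchymal genes by -1.33.

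Single genes with the largest differences were mostly low in level. Hspa12a, a distant Hsp70 relative, stood at 30.9 CPM in library 1 and 4.25 in library 2 (log2 -2.86), with 42.8% and 55.6% of its counts from 1 cell. Dnajc21, which acts in ribosome assembly, stood at 109.9 and 24.2 CPM (-2.19), Hsph1 at 346 and 138 (-1.33), the J-domain gene Dnajc18 at 36.6 and 15.7 (-1.22) and the ER membrane J protein Dnajc1 at 132 and 58.8 (-1.17). Higher in library 2 were Hspa13 at 17.7 and 44.2 CPM (1.32), Dnaja3 at 15.3 and 27.8 (0.86), the mitochondrial import subunit Dnajc19 at 55.2 and 99.2 (0.85), Dnajb11 at 57.1 and 86.1 (0.59) and Dnajc7 at 53.0 and 71.9 (0.44). Of the 30 members with a mean over both libraries of 100 CPM or more, Hsph1 was thus the only one that differed by more than 2-fold.

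Runx1 itself differed between the libraries, at 300.4 CPM in library 1 and 136 in library 2, with a count in 76.7% and 79.5% of cells. To relate chaperones to it, each library was split at its median Runx1 level into high (21 and 22 cells) and low (22 and 22 cells), and the counts were summed. Median Runx1 was 386 and 157 CPM in high cells and 3.30 and 2.83 in low cells. High cells were also deeper, with median counts of 260240 against 95376 in library 1 and 271733.5 against 213444 in library 2, and they held fewer endothelial and more hematopoietic transcripts.

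Chaperone groups took opposite directions with Runx1. The median fold changes of CCT and mitochondrial genes lay above 0 in Runx1-high cells and that of ER genes below 0. Single members of these groups went the other way in 1 or both libraries. The inducible Hsp70 pair took no steady direction. In both libraries the group sums gave the same picture in correlations across cells. None of the 63 members tested passed the test without pairing, and Cct3 alone passed when the high and low sums of each library were paired.

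Without pairing, edgeR's quasi-likelihood test (Benjamini-Hochberg adjustment) called 0 of 63 members at adjusted p under 0.05. The lowest adjusted p was 0.854, and 3 members (4.76%) had an unadjusted p under 0.05. Of all 10629 genes tested, 1 (0.00941%) was called, the collagen gene Col1a1, lower in Runx1-high cells, and 588 (5.53%) had an unadjusted p under 0.05. With the library as a block, which pairs the high and low sums of a library, edgeR called 166 genes (1.56%), 40 higher and 126 lower, and 1 of 63 members, Cct3. Then 12 members (19.0%) had an unadjusted p under 0.05, against 921 genes (8.66%). DESeq2 without pairing called 140 genes and 0 of the 58 members with an adjusted p, the lowest being 0.125. Its unadjusted p was under 0.05 for 6 members (8.96%) and 1119 genes (8.47%), near the same share. Those shares are over a larger set than the genes with an adjusted p. With 2 libraries whose means differ, the unpaired fit has little power, so its lack of calls does not show that levels were equal.

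Cct3, which encodes a CCT subunit, was higher in Runx1-high cells. Its summed level after TMM scaling was 625 CPM in high and 352 in low cells of library 1, and 502 and 140.2 in library 2. Its log2 fold change was 1.20 ± 0.49 (SE), with p 0.0348 and adjusted p 0.876 in edgeR's quasi-likelihood test (Benjamini-Hochberg adjustment). With the library block it was 1.33 ± 0.34 (SE), p 9.75e-05 and adjusted p 0.0113. Cct3 was thus higher in Runx1-high cells of both libraries, and its call depended on pairing. In thinned cells (20000 counts each) with the block it was 1.05 with adjusted p 0.458, so the call was lost. Thinning came before the split, so the high and low groups changed with it and 1 cell of library 1 was too shallow to keep, and depth was not the only difference.

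All 7 CCT subunits had a fold change above 0. Where 28.8% of all genes were higher in both libraries, 5 of the 7 subunits (71.4%) were. Their median log2 fold change was 0.62 (0.41 in library 1 and 0.79 in library 2), against -0.01 for all genes, and 0.32 in thinned cells. The mitochondrial genes stood at 0.65 (0.51 and 0.69, and 0.32 in thinned cells), with 5 of 6 higher in both. Hspe1 stood at 1727 in high and 1159 in low cells of library 1, and 1489.95 and 683 in library 2 (log2 0.80, p 0.0562). Hspd1 stood at 828 and 654, and 629 and 254 CPM (0.68, p 0.184). With the library block, edgeR's quasi-likelihood test gave p 0.00114 (adjusted p 0.0637) for Hspe1 and p 0.00809 (adjusted p 0.221) for Hspd1. Both parts of the mitochondrial chaperonin were higher with Runx1 in both libraries, without passing the test with or without the block.

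The ER group was the reverse. All 8 genes had a fold change below 0. Where 26.3% of all genes were lower in both libraries, 6 of the 8 ER genes (75%) were. The ER median was -0.69 (-0.94 and -0.73, and -0.38 in thinned cells). Hspa5 stood at 620.05 CPM in high and 1208 in low cells of library 1, and 497 and 746 in library 2 (log2 -0.81, p 0.0636, and p 0.00762 with the block). Hsp90b1 stood at 748 and 1101, and 686 and 882 (-0.47, p 0.206). The ER J protein Dnajc10 stood at 46.6 and 172, and 47.4 and 93.9 (-1.50, p 0.0284), but its log2 fold change was -0.29 as a mean of per-cell CPM. Hspa5, Hsp90b1 and Dnajc10 were lower in Runx1-high cells of both libraries. No ER gene passed edgeR's quasi-likelihood test after Benjamini-Hochberg adjustment (lowest adjusted p 0.854, that of Dnajc10).

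The medians of inducible and constitutive genes lay nearer 0, and inducible genes went different ways. Hspa1a stood at 845 CPM in high and 1331 in low cells of library 1 but 1431 and 1106 in library 2 (log2 -0.10), and Hspa1b at 1137.5 and 1428, and 1057 and 959.9 (-0.12). Both thus went opposite ways in the 2 libraries. Among other inducible genes, Hsp90aa1 stood at 3146 and 2621, and 2106 and 1273 (0.43, p 0.318, and p 0.0367 with the block), Hsph1 at 416 and 225, and 177 and 75.1 (0.99, p 0.140, and p 0.00769 with the block), and Hspb1 at 144.5 and 288, and 388 and 38.8 (0.71, p 0.404, and p 0.0239 with the block). The inducible median was 0.39 (-0.07 and 0.65), but -0.10 in thinned cells, and the constitutive median 0.11 (0.05 and 0.15), with Hspa8 at 3766 and 2710, and 2271 and 1912 (0.39), and Hsp90ab1 at 6627 and 6442, and 5252 and 4002 (0.19). Hsp90aa1 and Hsph1 were higher in both libraries, while Hspb1 was lower in library 1.

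Members with the largest fold changes were mostly scarce. Lower in both libraries in Runx1-high cells were Hspa12a (5.03 and 81.1 in high and low cells of library 1, 1.43 and 8.34 in library 2, log2 -3.79), the J-domain gene Dnajc16 (0.173 and 15.8, 4.28 and 10.1, -2.52), Hspb11, a ciliary transport gene (8.32 and 102, 40.4 and 49.1, -1.63), and the J protein Dnaja4 (0 and 6.89, 5.19 and 8.53, -1.56). Higher in both were Dnajc2, a J protein at the ribosome (336 and 164, 195 and 75.1, 1.15), and Dnaja3 (23.2 and 0.985, 31.3 and 21.7, 1.25). Hspa12a had an unadjusted p of 0.0324 and Dnajc2 of 0.0568, and the others had 0.104 or more.

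Genes outside the family gave a mixed comparison. Co-chaperones had a median log2 fold change of 0.34, with 12 of 13 above 0. The list of Tcp1 and prefoldin genes stood at 0.21, with 5 of 7 above 0. Tcp1, itself a CCT subunit, went as the CCT group did (log2 0.67). It stood at 280 CPM in high and 208 in low cells of library 1, and 250 and 126 in library 2. The outside ER stress genes stood at 0.00, with 7 of 14 above 0 and medians of -0.59 and -0.12 within libraries 1 and 2. Its sum was 2550.3 CPM in high and 3726 in low cells of library 1 and 2914 and 2988 in library 2, and it correlated with Runx1 at -0.220 and 0.0156, so it was lower with Runx1 in library 1 and about level in library 2. The outside mitochondrial protein control genes stood at 1.21, with 3 of 4 above 0. By edgeR's quasi-likelihood test, 0 genes of these lists were called without pairing.

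**Figure D4:**
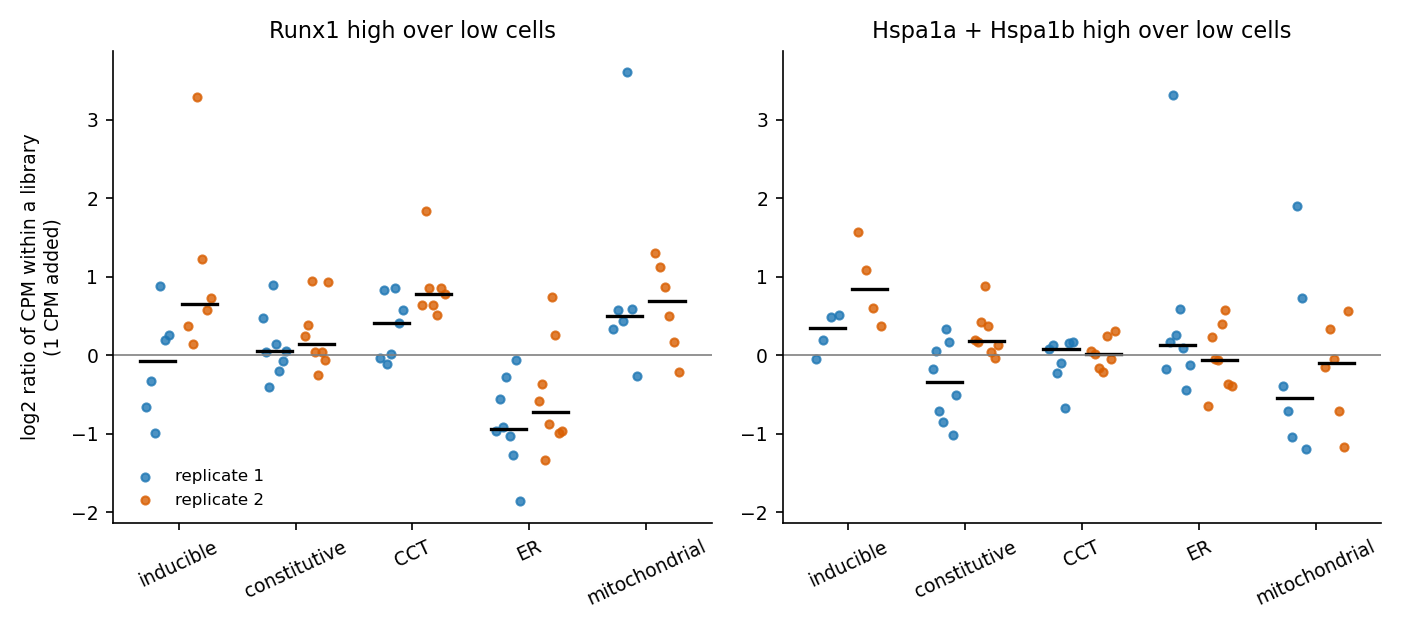
Log2 ratio of high to low cells within each library for genes of each group, with 1 CPM added and bars at medians, for the Runx1 split and the Hspa1 split. CCT and mitochondrial genes lie mostly above 0 and ER genes below 0 in the Runx1 split.

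Correlations across single cells also set CCT and mitochondrial genes apart from ER genes, while inducible and constitutive genes changed places. Summed CCT genes went with Runx1 at 0.378 in library 1 and 0.624 in library 2, mitochondrial genes at 0.365 and 0.524, constitutive at 0.273 and 0.364, inducible at -0.0469 and 0.313, the Hspa1 pair at -0.200 and 0.0214 and ER genes at -0.352 and -0.350. Depth moved with Runx1, so the correlations were also taken given depth and in thinned cells. Given depth, CCT stood at 0.332 and 0.558, mitochondrial at 0.295 and 0.519 and ER at -0.312 and -0.224. In thinned cells they stood at 0.334 and 0.581, 0.182 and 0.413, and -0.341 and -0.204, so all kept their direction.

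Most members, like most genes, lay above 0. Of 34 members, 23 correlated with Runx1 above 0 in both libraries and 5 below 0 in both, where 57.6% and 12.2% of all genes did. Highest were Cct3 (0.418 and 0.552), Hspd1 (0.321 and 0.519), Hsph1 (0.388 and 0.444), Hspa9 (0.274 and 0.541) and Cct7 (0.314 and 0.496). In thinned cells Cct3 stood at 0.373 and 0.534, Hspa9 at 0.346 and 0.370 and Cct7 at 0.242 and 0.458. Thinned values in library 1 were lower for Hspd1 (0.118 and 0.453), Hspe1 (0.120 and 0.287) and Hsph1 (0.163 and 0.363). Lowest were Hspa5 (-0.283 and -0.338), Hsp90b1 (-0.264 and -0.257), Dnajc10 (-0.227 and -0.179) and Dnajc8, a splicing factor with a J domain (-0.169 and -0.189). The lowest 3 were thus ER chaperones, but the other 3 ER genes did not follow: Dnajc3 stood at 0.0836 and 0.0221, Dnajc1 at 0.126 and 0.0188 and Dnajb11 at -0.0844 and 0.445.

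The cells of the Runx1 split differed in more than Runx1. Endothelial genes summed to 1582 CPM in high and 3174 in low cells of library 1 and 2756 and 4556 in library 2, and hematopoietic genes to 1037 and 364, and 657 and 47.2. The hematopoietic list holds Runx1 itself (457 of the 1037 CPM), so part of that difference was set by the split. Macrophage genes summed to 151.9 and 38.1, and 133.2 and 32.7, and erythroid genes to 18.2 and 4.41, and 27.0 and 6.47. Immediate early genes went opposite ways, 5222 and 3240 in library 1, and 3409 and 4966 in library 2. Mesenchymal genes summed to 48.4 and 2249.7, and 23.3 and 786.2, since the 3 cells that carried them fell in the low groups. Without those cells the CCT median was 0.65, the ER median -0.67 and the mitochondrial median 0.66. Runx1, depth and cell type markers moved together, and their parts in the group differences cannot be told apart here.

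No other chaperone was called between cells rich and poor in inducible Hsp70. Each library was split at the median of summed Hspa1a and Hspa1b into 21 and 22 high and 22 and 22 low cells, with median levels of 4252 and 3368 CPM in high cells and 1059 and 1256 in low cells. High cells were shallower in library 1 (median counts 93911 against 214936.5) and near equal in library 2 (231792.5 against 248020.5). Hspa1a and Hspa1b were left out of the test. The fold changes of the 4 other inducible genes lay above 0, and the medians of the other groups lay nearer 0, though not within library 1.

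Without pairing, edgeR's quasi-likelihood test (Benjamini-Hochberg adjustment) called 0 of 60 members, and 0 had an unadjusted p under 0.05. Of all 10749 genes, 2 (0.0186%) were called, the collagens Col1a1 and Col3a1, both lower in Hspa1-high cells, and 198 (1.84%) had an unadjusted p under 0.05. With the library block edgeR called 7 genes (0.0651%), 3 higher and 4 lower, and 376 (3.50%) had an unadjusted p under 0.05. Members then had 0 called and 1 at an unadjusted p under 0.05, Hsp90aa1. DESeq2 called 14 genes and 0 of 65 members, with 0 members at an unadjusted p under 0.05, against 545 genes (4.13%). As above, the lack of calls does not show equal levels.

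All 4 other inducible genes had a fold change above 0, with a median log2 of 0.50 (0.34 and 0.84 in libraries 1 and 2). Hsp90aa1 stood at 3715 CPM in high and 2612 in low cells of library 1, and 1998 and 1538 in library 2 (0.46, p 0.272, and p 0.0301 with the block). Dnajb1 stood at 626 and 444, and 420 and 276 (0.54, p 0.228), and Hsph1 at 384 and 336, and 185 and 86.6 (0.43, p 0.492). Hspb1 stood at 190.3 and 197.3, and 371 and 123.7 (0.81, p 0.124). Hsp90aa1, Dnajb1 and Hsph1 were thus higher with Hspa1 in both libraries, by less than 2-fold in the fit, and none passed the test. Across single cells Hsph1 showed no steady relation to the Hspa1 sum (-0.0483 and 0.0998).

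The other groups had medians of 0.01 (constitutive, -0.34 and 0.18 within libraries 1 and 2), 0.06 (CCT), 0.15 (ER) and -0.21 (mitochondrial, -0.55 and -0.10), against -0.02 for all members and -0.02 for all genes. Outside lists were at or below 0: co-chaperones -0.29 (5 of 13 above 0), Tcp1 and prefoldin -0.55 (2 of 7), ER stress -0.13 (5 of 14) and mitochondrial protein control -0.05. Among the 5 groups, the inducible genes thus had the highest median, at 0.50. Across single cells the constitutive sum went with the Hspa1 sum at 0.0236 in library 1 and 0.355 in library 2.

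The largest fold changes again fell on scarce members. Lower in both libraries in Hspa1-high cells were Dnajb14, an ER membrane J protein (0.342 and 13.0 CPM in high and low cells of library 1, 4.48 and 7.65 in library 2, log2 -2.06), the neuronal J protein Dnajb2 (0 and 8.71, 2.63 and 2.65, -2.06) and Hspb11 (4.11 and 59.5, 33.8 and 53.8, -1.56). So were Dnajc30, a mitochondrial J protein (31.8 and 38.1, 2.78 and 47.1, -1.31), and the small GTPase gene Dnajc27 (5.13 and 19.3, 13.1 and 21.1, -1.14). Higher in both were Dnajc11 of the mitochondrial membrane (109.5 and 38.3, 56.9 and 32.1, 1.24), the Hsp110 relative Hspa4l (16.8 and 14.0, 26.4 and 4.68, 1.21), the endosomal J protein Dnajc13 (93.4 and 43.7, 52.9 and 52.0, 0.61), Dnajb1 and Dnajb11 (75.3 and 49.5, 96.6 and 73.2, 0.49). None passed edgeR's quasi-likelihood test after Benjamini-Hochberg adjustment, each with an adjusted p of 0.9997. As a mean of per-cell CPM the log2 fold change was 0.0653 for Dnajc27 and -0.0357 for Hspa4l, so neither kept its direction. Dnajc13 also lost its direction in thinned cells.

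The Hspa1 split also moved other transcripts. Endothelial genes summed to 2839 CPM in high and 1797 in low cells of library 1 and 3559 and 3399 in library 2, and immediate early genes to 5268 and 4138, and 4159 and 3909.5. Mesenchymal genes, highest in the same 3 cells, all of them Hspa1-low, summed to 57.9 and 1222, and 22.1 and 634.7. Macrophage genes were also lower in Hspa1-high cells, 45.3 and 145.0, and 63.2 and 122.3, while hematopoietic genes stood at 595 and 901, and 456 and 368. Hspa1-high and Runx1-high cells overlapped in 9 of 21 and 11 of 22 cells, so one split did not stand in for the other. Handling of the cells before lysis was not tested as a source of Hspa1 or immediate early transcripts.

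Inducible Hsp70 was high in most cells, varied 103-fold and 87.5-fold, went loosely with Hsp90aa1 and Dnajb1 and showed no steady relation to Runx1. The CCT ring and mitochondrial chaperonin varied together and with Runx1, and Cct3 alone passed a test, with pairing. Depth moved with Runx1 too, and in thinned cells of library 1 Hspd1 and Hspe1 went with Runx1 only at 0.118 and 0.120. Summed ER chaperones, chiefly Hspa5 and Hsp90b1, were lower where Runx1 was high, without passing the test.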

How the data were processed

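The deposited table holds UMI counts of 23154 genes in 87 single cells from 2 libraries of a modified STRT-seq protocol. According to the submitters' processing notes, the authors split reads by barcode, trimmed template-switch and poly(A) sequence, aligned to mm10 with HISAT2 2.1.0, counted with HTSeq, removed duplicates by UMI and kept cells with over 2000 genes and 10000 transcripts. As deposited, 1 of the 87 cells had 2000 genes or fewer. Strand use in counting is not given in the sources used here, and 31 of 81 members share exon bases with another gene in GENCODE M21. Barcode sequences were used only to check whether the libraries shared any.

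Here counts were summed per library and expressed as CPM. Python 3.11.15, pandas 2.3.3, numpy 2.4.6, scipy 1.17.1 and matplotlib 3.10.9 were used for levels, correlations and figures, and R 4.3.3 with edgeR 4.0.16 and DESeq2 1.42.0 for tests. Each library was split at its median of Runx1, or of Hspa1a plus Hspa1b, and the 4 sums were compared without a block, with TMM scaling, low-count filtering and a threshold of 0.05 on adjusted p. The splitting genes were left out of the tests and of the Benjamini-Hochberg adjustment. High and low sums of the same library pair by construction. As a check, deviations from the group mean correlated between them at 0.1772 over 10630 genes (Runx1) and 0.1569 over 10751 (Hspa1). Alternatives were the library as a block, DESeq2, RLE scaling, no filter, thinning to 20000 counts per cell (seed 173), the highest and lowest 33% of cells, no mesenchymal cells, mean per-cell CPM and each library left out. Thinning came before splitting, so groups differ from those of the full counts, and 1 cell too shallow was left out. The code was tested on simulated data. Where the simulated libraries kept their own means, the fit without a block found no changed gene at any size tried, while the fit with the block found the large changes and almost none of the smallest. Members and lists were chosen with earlier results of these data known. Named members were those of the 5 groups, those past the test, and the 5 with the largest fold changes each way that went the same way in both libraries. Counting intervals cover counting error only: Hsp90ab1 at 6478 CPM in library 1 had an interval of 6425 to 6531 (95%), and Hsph1 at 346 one of 334 to 358. The libraries shared 0 cell barcodes, and their difference was wider than counting error (chi-square per degree of freedom 94.0 over 12390 genes).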

Additional observations from a re-analysis of the deposited data

How the results depend on the processing

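With 2 libraries, no condition was replicated beyond the split within each, and depth, cell type markers and Runx1 moved together, so their parts cannot be told apart and the cause of each shift was not tested. Hspa1a and Hspa1b share most of their coding sequence.

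In the Runx1 comparison, edgeR without pairing called 1 gene. Pairing the sums of a library as a block gave 166 genes, and the members called went from 0 to 1. The count was 140 by DESeq2, 67 with no filter, 0 in thinned cells, 0 with the highest and lowest 33% of cells and 0 without mesenchymal cells. Thinned cells with the block gave 4, an alternative added after the data were seen. The constitutive median of 0.11 became 0.24 with the block, 0.18 with 33% of cells and 0.22 as a mean of per-cell CPM. In thinned cells, which were split anew with 1 cell of library 1 left out, the CCT median was 0.32 in place of 0.62, the ER median -0.38 in place of -0.69, the mitochondrial median 0.32 in place of 0.65 and the inducible median -0.10 in place of 0.39. Mesenchymal genes then summed to 1100.0 CPM in high cells of library 1, against 48.4 before, so more than depth had changed. The ER median was -0.54 with 33% of cells, -0.29 as a mean of per-cell CPM, -0.45 in thinned cells with the block, and -0.94 to -0.73 with a library left out. The mitochondrial median was 0.30 in thinned cells with the block and 0.51 to 0.69 with a library left out.

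In the Hspa1 comparison, 2 genes called became 7 with the block, 14 by DESeq2, 6 with no filter, 0 with 33% of cells, 0 without mesenchymal cells and 5 in thinned cells with the block. The inducible median of 0.50 was 1.27 with 33% of cells. The CCT median of 0.06 was -0.14 in thinned cells, 0.12 with 33% of cells, -0.21 in thinned cells with the block and -0.13 as a mean of per-cell CPM. The ER median of 0.15 was 0.31 with 33% of cells and -0.0541 to 0.135 with a library left out, and the mitochondrial median of -0.21 was -0.55 to -0.10 with a library left out. Dnajc27 went from -1.14 to 0.0653 and Hspa4l from 1.21 to -0.0357 as a mean of per-cell CPM. Dnajc13 went from 0.61 to -0.27 in thinned cells and -0.0681 in thinned cells with the block.

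Between libraries, members lower by 2-fold went from 5 to 3 as a median of per-cell CPM. Members higher by 2-fold went from 1 to 2 as a mean of per-cell CPM, 8 as a median of it, 5 in thinned cells and 3 without the deepest cell. The log2 ratio of Dnajc1 went from -1.17 to 0.60 as a median of per-cell CPM, a scaling in which the median ratio of all genes was 1.61 (-0.02 to 0.03 in the others). For coordination, the mean over libraries of the inducible median was 0.183, and 0.329 among genes in 90% of cells. That of ER genes was 0.0759, 0.128 by Pearson correlation and 0.346 among genes in 90% of cells, where 1 pair was left, Hspa5 with Hsp90b1, and that of mitochondrial genes 0.161 and 0.229.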

Other observations

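The 3 cells with mesenchymal transcripts had Hspa1 sums of 1069.9, 1970 and 1785 CPM, and ER chaperone sums of 4303, 6503 and 3684 CPM, against library medians per cell of 2136 and 1851.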
